A study of Homo sapiens with 2 samples.

Results

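This account concerns 48 genes that encode enzymes adding methyl groups to histones or taking them off, and asks where they carried peaks of LSD1 (KDM1A), which is itself a histone demethylase and was left out. The genes were taken by name from the GENCODE annotation on hg19, among 20136 protein-coding gene symbols, and comprised 19 lysine demethylase genes, 26 lysine methyltransferase genes and 3 arginine methyltransferase genes. The arginine enzymes, PRMT1, PRMT5 and CARM1, do not modify lysine and were kept apart. The series held 1 library of LSD1 chromatin immunoprecipitation followed by sequencing (ChIP-seq), made with an Abcam antibody, and 1 library of input DNA. Both came from PC-3M-luc cells of the genotype labelled Control. PC-3M-luc cells carry luciferase and descend from PC-3M, a metastatic variant of the human prostate carcinoma line PC-3, which grows without androgen. The data are a single list of 20110 peaks with the authors' score for each, and no source used here gives the number of reads behind it. With 1 library in each arm there is no replicate spread, so no test was made and every comparison is a description of this list.

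Methyl groups on histone lysines are placed by writers, most of which carry a SET domain, and removed by erasers of 2 chemical families, the flavin-dependent amine oxidases and the iron-dependent JmjC enzymes. LSD1 is an amine oxidase that acts on mono- and dimethylated H3K4 within the CoREST and NuRD corepressor complexes. Methylated H3K4 marks promoters and enhancers, H3K36 and H3K79 methylation accompany transcribed genes, and H3K9, H3K27 and H4K20 methylation are known for silent or compacted chromatin.

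Every one of the 48 genes had an LSD1 peak with at least 1 base no further than 1 kb from an annotated transcription start site (TSS), in both the erasers and the writers. The demethylase genes had such a promoter peak at 19 of 19 (exact 95% binomial interval 82.4 to 100%), the lysine methyltransferase genes at 26 of 26 (86.8 to 100%) and the arginine methyltransferase genes at 3 of 3. Among all protein-coding genes the share was 58.2%. The difference between demethylase and lysine methyltransferase genes was thus 0 percentage points, with an interval of -16.8 to 12.9 points (Newcombe) that covers counting error only. The 48 genes also stood apart in base composition and annotation. A CpG-rich canonical promoter was present at 44 of them (91.7%), against 55.8% of all protein-coding genes, and their median number of annotated TSSs was 14.5 against 5. Promoters were called CpG-rich where the 1000 bp around the canonical TSS exceeded 55% GC and an observed-to-expected CpG ratio of 0.65. Of all genes with a CpG-rich canonical promoter 78.9% had a promoter peak, and of those that also had 10 or more TSSs 88.0% did. The part of promoter sequence and TSS number in the count of 48 was not tested further.

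The canonical TSS itself lay under a peak at 19 of 19 demethylase, 24 of 26 lysine methyltransferase and 2 of 3 arginine methyltransferase genes. Over the 48 genes the share was 93.8% (interval 82.8 to 98.7), against 54.3% of the protein-coding genes with a canonical TSS. It was 75.9% of those with a CpG-rich promoter and 84.2% of those that also had 10 or more TSSs. Among the 48 genes the exceptions were NSD2, KMT5A and CARM1. NSD2, an H3K36 methyltransferase, had its promoter peak (chromosome 4, 1870628 to 1873027, score 421) ending 93 bp short of the TSS. KMT5A, which places monomethylation on H4K20, had a weak peak of 864 bp that ended 1 bp before its TSS, with a score of 62.1. CARM1, an arginine methyltransferase and transcriptional coactivator, had no peak within 1 kb of its canonical TSS, and the nearest peak lay 34056 bp away. Its 1 peak lay at an alternative TSS close to the 3′ end of the gene, was 7511 bp wide (chromosome 19, 11029174 to 11036684) and also covered 3 alternative TSSs of the neighbour YIPF2, whose canonical TSS lay outside it.

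**Figure D1:**
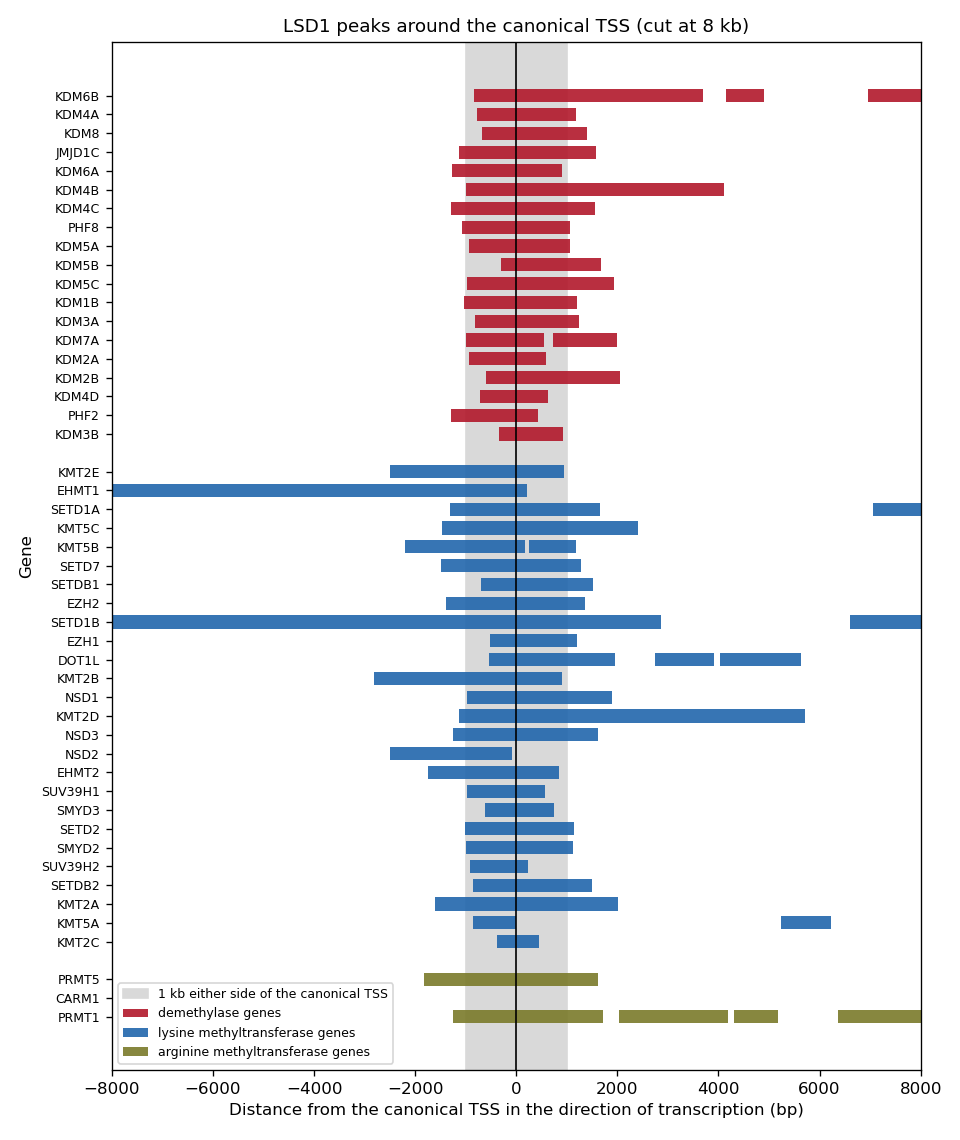
Position of LSD1 peaks at the 48 genes. Each row is a gene, bars are peaks, and the x axis is the distance in bp from the canonical TSS along the direction of transcription, cut at 8 kb; the grey band is 1 kb either side. Bars cross the TSS at 45 of the 48 genes; NSD2 and KMT5A have a bar ending just before it and CARM1 has none in view.

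The promoter peaks were read for their strength by the authors' score, which serves here only to rank peaks within this list. It ran from 50 to 3226, with a median of 206 over all peaks. The highest-scoring promoter peak of a gene had a median score of 652 over the demethylase genes (95% order-statistic interval 359 to 851, range 95.02 to 1918), and of 783 over the lysine methyltransferase genes (306 to 952, range 82.1 to 3100). Over all protein-coding genes with a promoter peak the median was 480, and over those of them with a CpG-rich promoter and 10 or more TSSs it was 562. The 2 intervals of the enzyme classes treat genes as draws and cover no replicate spread, and the difference between the classes was not tested. Above 480 lay 11 of 19 demethylase genes and 15 of 26 lysine methyltransferase genes. Where the peak midpoint had to lie within 1 kb of a TSS, the medians of these classes were 531 and 538, against 447 over all protein-coding genes. A score of at least 1000 was reached at 4 demethylase (21.1%), 6 lysine methyltransferase (23.1%) and 3 of 3 arginine methyltransferase genes, 13 of 48 in all (27.1%). The share was 12.0% of all protein-coding genes and 21.9% of those with a CpG-rich promoter and 10 or more TSSs. The 2 lysine enzyme classes thus lay near the latter share, and the pooled value lay above it with the arginine methyltransferase genes included. A score at or above the median of the list was reached at 42 of 48 (87.5%), against 46.0% of all protein-coding genes and 73.9% of that CpG-rich set.

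**Figure D2:**
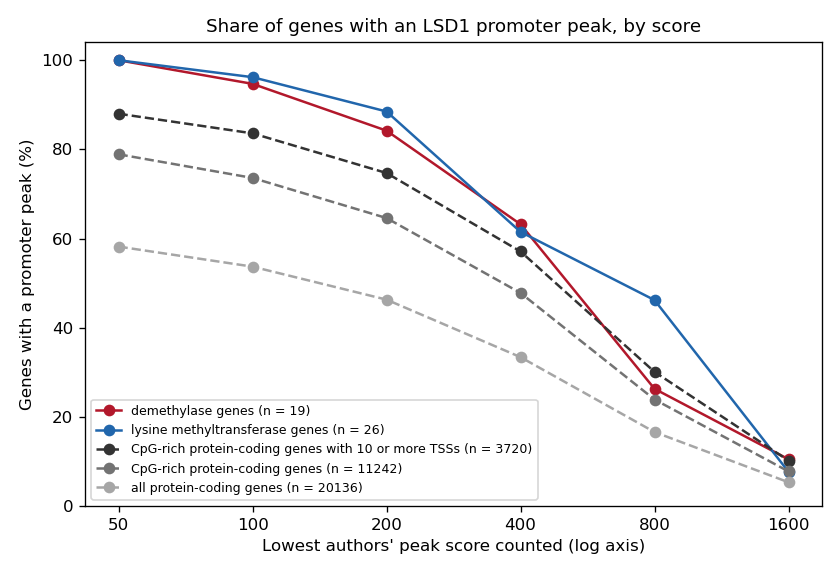
Share of genes (y axis, percent) whose promoter carried an LSD1 peak of at least the score on the x axis (log axis), for the 2 lysine enzyme classes and for 3 sets of protein-coding genes. At the lowest score of 50 both enzyme classes stand at 100%, all protein-coding genes at 58.2% and CpG-rich genes with 10 or more TSSs at 88.0%. At 1600 the demethylase genes are at 10.5% and the lysine methyltransferase genes at 7.69%. All protein-coding genes are there at 5.34%, CpG-rich genes at 7.77% and CpG-rich genes with 10 or more TSSs at 10.2%.

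The 300 bases at the canonical TSS are printed for the genes on which these results turn, from the GRCh37 genome, with 250 bases before the TSS and 50 from it onward. KDM6B, KMT2E and PRMT5 had the highest-scoring promoter peak of their class. For KDM6B that peak (score 1918) lay at an alternative TSS, and the window printed lies under its canonical peak, with a score of 1282. KDM4A, with the highest demethylase score over a canonical TSS, KMT2C, with the lowest score among the lysine methyltransferases, and CARM1, with no peak there, were added after their values were seen. Capitals mark the GC box bound by SP and KLF factors (GGGCGG, or CCGCCC on the other strand) and the CCAAT box bound by NF-Y (CCAAT, or ATTGG).
KDM6B, chr17:7737285-7737584, plus strand: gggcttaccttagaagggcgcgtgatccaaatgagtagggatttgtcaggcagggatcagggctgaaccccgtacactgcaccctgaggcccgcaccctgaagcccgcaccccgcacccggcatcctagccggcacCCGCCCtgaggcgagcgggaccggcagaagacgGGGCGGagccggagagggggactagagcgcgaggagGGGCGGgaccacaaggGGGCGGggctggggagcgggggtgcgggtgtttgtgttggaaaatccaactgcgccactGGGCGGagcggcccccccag
KDM4A, chr1:44115570-44115869, plus strand: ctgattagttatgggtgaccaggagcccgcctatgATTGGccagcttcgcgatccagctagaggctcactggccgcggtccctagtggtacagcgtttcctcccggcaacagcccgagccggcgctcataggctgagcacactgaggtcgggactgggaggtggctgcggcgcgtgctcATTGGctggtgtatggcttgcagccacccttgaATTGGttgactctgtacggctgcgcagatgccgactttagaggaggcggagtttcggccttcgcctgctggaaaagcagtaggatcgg
KMT2E, chr7:104654402-104654701, plus strand: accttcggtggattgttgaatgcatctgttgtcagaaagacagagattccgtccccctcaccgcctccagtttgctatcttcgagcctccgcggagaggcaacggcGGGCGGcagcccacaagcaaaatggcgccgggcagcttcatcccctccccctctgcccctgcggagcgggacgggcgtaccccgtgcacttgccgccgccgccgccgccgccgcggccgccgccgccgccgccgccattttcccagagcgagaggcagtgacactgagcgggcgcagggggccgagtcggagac
KMT2C, chr7:152133039-152133338, minus strand: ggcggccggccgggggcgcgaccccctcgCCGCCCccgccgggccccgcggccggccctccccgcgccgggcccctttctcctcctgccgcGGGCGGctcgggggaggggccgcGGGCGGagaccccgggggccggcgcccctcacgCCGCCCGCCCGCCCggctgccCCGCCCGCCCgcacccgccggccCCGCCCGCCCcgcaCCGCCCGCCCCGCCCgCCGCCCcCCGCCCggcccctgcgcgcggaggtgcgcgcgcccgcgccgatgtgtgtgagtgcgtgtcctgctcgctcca
PRMT5, chr14:23398536-23398835, minus strand: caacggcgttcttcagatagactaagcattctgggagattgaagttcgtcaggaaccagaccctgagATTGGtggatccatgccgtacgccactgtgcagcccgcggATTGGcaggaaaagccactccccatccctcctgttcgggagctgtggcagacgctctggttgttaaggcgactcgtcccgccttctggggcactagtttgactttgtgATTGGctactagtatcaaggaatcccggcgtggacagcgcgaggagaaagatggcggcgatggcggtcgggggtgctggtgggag
CARM1, chr19:10981979-10982278, plus strand: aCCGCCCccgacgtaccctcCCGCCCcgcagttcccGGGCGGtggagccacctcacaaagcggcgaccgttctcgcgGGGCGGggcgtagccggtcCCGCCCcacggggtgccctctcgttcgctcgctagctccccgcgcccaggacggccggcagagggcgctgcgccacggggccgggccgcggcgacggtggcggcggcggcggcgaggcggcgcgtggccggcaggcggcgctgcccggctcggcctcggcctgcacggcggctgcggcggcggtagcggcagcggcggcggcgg
KDM4A and PRMT5 each held 3 CCAAT boxes and 0 GC boxes. KMT2C held 15 GC boxes, overlapping matches included, in a window of 88.7% GC, and CARM1 held 5 in a window of 82.3% GC. KDM6B held 5 GC boxes and KMT2E held 1, in windows of 69.3% and 69.0% GC.

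Over the 48 windows, GC boxes occurred in 79.2%, against 61.5% of the 300-base windows of all protein-coding genes and 83.3% of those with a CpG-rich promoter. CCAAT boxes occurred in 39.6% of the windows of the 48 genes, against 36% of all and 34.1% of the CpG-rich. The ETS core (CCGGAA, both strands) occurred in 22.9% of the 48 windows against 22.8% of all and 28.9% of the CpG-rich, with 6 of 19 among demethylase genes and 5 of 26 among lysine methyltransferase genes. The E-box CACGTG occurred in 6 of the 48 windows (12.5%), against 8.77% of all and 10.6% of the CpG-rich. The AP-1 element TGANTCA occurred in 2 of 48 (4.17%), at KDM6A and KDM4C, which is below the 5.4% of all and above the 2.8% of the CpG-rich. The TATA box TATAAA occurred in 0 of 48 windows, against 9.63% of all and 3.91% of the CpG-rich. A match describes letters in this window and is not a binding site.

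The H3K4 erasers had promoter peaks with scores between 448 and 666. KDM5A, KDM5B and KDM5C, JmjC enzymes that remove tri- and dimethylation from H3K4, scored 666, 652 and 531, and KDM1B, the paralogue of LSD1, scored 448. The KDM1B peak (chromosome 6, 18154620 to 18156862, 2243 bp) covered the canonical TSS at 18155653 and the TSS of its divergent neighbour TPMT. A second, weak peak of 1384 bp and score 59.6 lay in an intron of KDM1B, and a 2364 bp peak in an intron of KDM5C scored 354.

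Among the erasers of H3K27 and of H3K9, single members stood high. KDM6B, which removes methyl groups from H3K27 and is known as an early response gene in inflammation, was overlapped by 6 peaks over its 20580 bp. That over its canonical TSS spanned 7736706 to 7741231 on chromosome 17 with a score of 1282, and the highest, at an alternative TSS in an intron, spanned 7744495 to 7748910 with a score of 1918. KDM6A, its X-linked relative, had 1 peak of 2185 bp with a score of 851 (chromosome X, 44731158 to 44733342). The enzymes of the 4 KDM4 genes act on trimethylated H3K9 and, in KDM4A to KDM4C, H3K36. Of these genes KDM4A stood highest with a peak of 1969 bp and a score of 1885 (chromosome 1, 44115039 to 44117007). KDM4B followed with 768 in a peak of 5106 bp that ran 4105 bp into the gene, KDM4C with 753 and KDM4D with 198. The KDM4D peak also covered the TSS of the divergent splicing factor gene CWC15.

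KDM3A and KDM3B, which remove mono- and dimethylation from H3K9, scored 393 and 95.02, and KDM3B was the lowest of the demethylase genes. Their relative JMJD1C scored 1024.8 at an upstream alternative TSS (chromosome 10, 65280013 to 65282477) in a peak that also covered the TSS of REEP3, and 830 at its canonical TSS. The other erasers lay low in the order with the exception of KDM8 and PHF8. KDM8, a JmjC protein first described as an H3K36 demethylase, scored 1025 (chromosome 16, 27214165 to 27216252). KDM2A and KDM2B, CpG island-binding H3K36 demethylases, scored 359 (chromosome 11, 67006920 to 67009054) and 352 (chromosome 12, 121974716 to 121976888) at alternative TSSs. At their canonical TSSs they scored 338 and 319. In the family that joins a PHD finger to the JmjC domain, PHF8 scored 738, KDM7A 382 and PHF2 123.

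The H3K4 writers of the MLL/SET1 family spanned almost the whole range of scores. KMT2E, a family member without known methyltransferase activity, carried a peak with a score of 3100 (chromosome 7, 104652158 to 104655596, 3439 bp), a value that 206 peaks of the list share exactly, so that they cannot be ranked among themselves. This peak also reached the TSSs of the non-coding genes KMT2E-AS1 and LINC01004. SETD1A and SETD1B, catalytic subunits of the SET1 complexes, scored 1382 and 939. The SETD1A peak spanned 30967770 to 30970735 on chromosome 16. The SETD1B peak was the widest of the 48 genes at 20874 bp (chromosome 12, 122223908 to 122244781) and covered the promoter of RHOF as well. KMT2B scored 876 and KMT2D 771 (chromosome 12, 49448871 to 49455701), whereas KMT2A, the gene rearranged in acute leukaemias, scored 154 and KMT2C 82.1. The KMT2C peak of 831 bp was the narrowest among the highest-scoring promoter peaks of the 48 genes. SETD7, an H3K4 monomethyltransferase, scored 1079, and the SMYD enzymes SMYD3 and SMYD2 scored 306 and 275.

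The H3K9 writers scored between 257 and 361 at their canonical TSS with the exception of EHMT1. EHMT1 (GLP) scored 1902 in a peak of 8408 bp (chromosome 9, 140505265 to 140513672) that reached 215 bp into the gene and covered 8192 bp upstream. That stretch held 4 of the 11 annotated TSSs of ARRDC1, all alternative ones, and its canonical TSS lay outside the peak. Its partner EHMT2 (G9a) scored 361. SUV39H1 and SUV39H2, which place trimethylation in heterochromatin, scored 331 and 259, and SETDB2 scored 257. SETDB1, which acts with KAP1 in silencing repeats, scored 278 over its canonical TSS. A stronger SETDB1 peak (chromosome 1, 150934245 to 150941771, score 972) lay at an alternative TSS near its 3′ end, over 6 alternative TSSs of CERS2 and not its canonical one.

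EZH2 and EZH1, the H3K27 methyltransferases of Polycomb repressive complex 2, scored 952 and 893. Among the H3K36 writers NSD1 scored 794, NSD3 681, NSD2 421 and SETD2, which places trimethylation on H3K36, 284. DOT1L, the H3K79 methyltransferase, scored 888 (chromosome 19, 2163384 to 2165888). Of the H4K20 writers KMT5C scored 1306 (chromosome 19, 55849773 to 55853657) and KMT5B 1213 (chromosome 11, 67980586 to 67982972), while KMT5A scored 100 at an alternative TSS. The arginine methyltransferases PRMT5, CARM1 and PRMT1 scored 2373, 2189 and 1615, the CARM1 value being that of the 3′ peak described above. At PRMT5 the peak (chromosome 14, 23396964 to 23400404) covered 1819 bp before and 1621 bp after the canonical TSS, and at PRMT1 (chromosome 19, 50179269 to 50182248) it covered 1259 bp before and 1720 bp after.

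**Figure D3:**
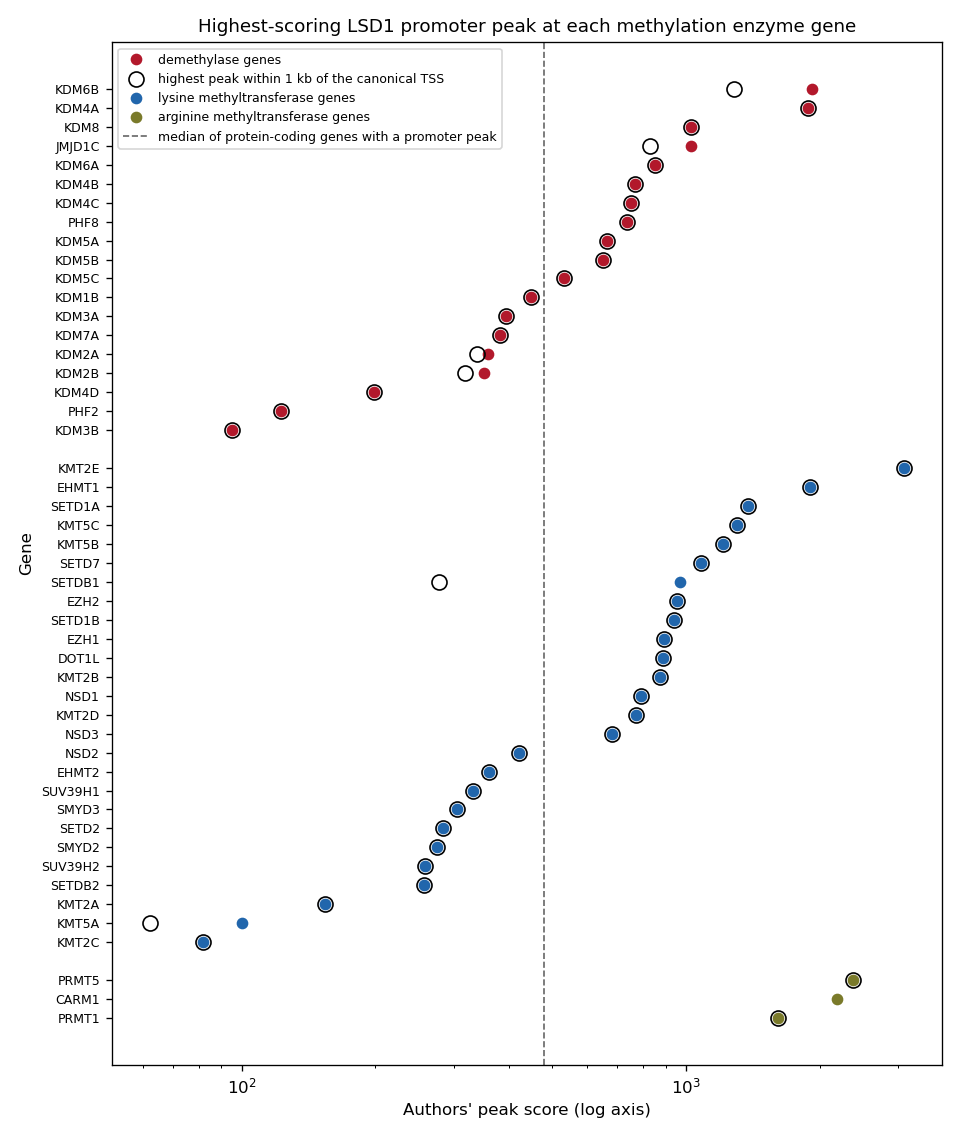
Authors' score (x axis, log axis) of the highest-scoring promoter peak of each of the 48 genes (filled points) and of the highest-scoring peak within 1 kb of the canonical TSS (open circles). The dashed line is the median of all protein-coding genes with a promoter peak, 480. The demethylase genes run from 95.02 to 1918 and the lysine methyltransferase genes from 82.1 to 3100, and CARM1 has no open circle.

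The strongest promoter peak could not always be assigned to 1 gene or to the canonical start. At 9 of the 48 genes (18.8%) the highest-scoring promoter peak missed the canonical TSS, against 13.7% of the protein-coding genes with a promoter peak and a canonical TSS. The 9 comprised 5 of 19 demethylase, 3 of 26 lysine methyltransferase and 1 of 3 arginine methyltransferase genes. At 13 of 48 (27.1%) it lay within 1 kb of a TSS of another protein-coding gene, against 33.7% of all with a promoter peak, so that neither share stands far from its background. Apart from those named above, these shared peaks stood at KDM5A with CCDC77, DOT1L with AP3D1, EHMT2 with C2 and SETDB2 with CAB39L, and at KDM4A and KMT5C with genes known only by identifier. Restricted to peaks within 1 kb of the canonical TSS, 11 of 48 genes (22.9%) had a score of at least 1000. They were 3 of 19 demethylase (15.8%), 6 of 26 lysine methyltransferase (23.1%) and 2 of 3 arginine methyltransferase genes. The share was 10.6% of all protein-coding genes with a canonical TSS and 18.8% of those with a CpG-rich promoter and 10 or more TSSs. The top peaks that covered the canonical TSS extended a median of 1198 bp downstream and 955 bp upstream at 14 demethylase genes, and 1198 and 1251 bp at 23 lysine methyltransferase genes, against 1002 and 871 bp over all protein-coding genes. They reached further downstream than upstream at 10 of the 14 and at 13 of the 23, against 58.1% over all protein-coding genes.

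More than 1 promoter peak was present at 6 of 19 demethylase, 5 of 26 lysine methyltransferase and 2 of 3 arginine methyltransferase genes, 13 of 48 in all (27.1%), against 19.1% of the protein-coding genes that had any and 29.9% of those with a CpG-rich promoter and 10 or more TSSs. A peak overlapped the gene body of all 48 genes, which follows largely from the promoter peaks. The share was 61.3% of all protein-coding genes and 89.7% of those with a CpG-rich promoter and 10 or more TSSs. A gene-body peak away from the gene's own promoters was found at 16 of 48 genes (33.3%, interval 20.4 to 48.4), against 20.6% of all protein-coding genes and 29.4% of those with a promoter peak. In the set with a CpG-rich promoter and 10 or more TSSs it was 31.0%. The share was 6 of 19 among demethylase genes and 9 of 26 among lysine methyltransferase genes. The 48 genes are long, with a median of 68.6 kb against 27.2 kb over all protein-coding genes, so the peaks away from promoters were also counted per 100 kb of gene. The demethylase genes held 0.459, from 11 peaks, and the lysine methyltransferase genes 0.672, from 19. The rate was 0.476 over all protein-coding genes and 0.475 over those with a CpG-rich promoter and 10 or more TSSs. Of the 19 peaks 6 lay within 1 kb of a TSS of another coding gene, and of the 11 peaks 1 did. DOT1L alone held 5 of the 19 and KMT2E 4. The difference between the classes was not tested. Pooled, the 48 genes held 0.585.

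These 31 peaks were split by whether another coding gene had a TSS within 1 kb, and by the place of their midpoint. Neither split was made for all protein-coding genes, so both describe the 31 peaks only. At 7 of them another coding gene had a TSS within 1 kb, and their median score was 969. They lay at the 3′ end of KMT2D beside PRKAG1 (chromosome 12, 49411258 to 49415380, score 2293), of KDM6B beside TMEM88, NAA38 and CYB5D1 (1821), of DOT1L beside PLEKHJ1 (1336), of NSD1 beside PRELID1 and RAB24 (969), of SETD1A beside HSD3B7 (377), of NSD3 beside PLPP5 (320) and of KMT2B beside IGFLR1 (226). The other 24 had a median score of 139, and 8 of them reached the median of the list. Highest among those 8 was a KMT2E peak of 2169 bp beside LINC01004 (chromosome 7, 104623185 to 104625353, score 1415), upstream of the canonical TSS. A 3773 bp peak in SETD1B followed with 557. By midpoint, 11 of the 31 lay in exons, 12 in introns and 8 beyond the end of the gene.

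KMT2D had the most gene-body peaks, 9 over 41820 bp, of which 7 lay within 1 kb of one of its 25 annotated TSSs. All but 3 of the 9 scored between 50.3 and 104.3, and several adjoined each other. DOT1L had 7, JMJD1C and KDM6B 6 each, KMT2E 5, KDM2A and PRMT1 4 each, and KDM2B, SETD1A and SETD1B 3 each. At DOT1L the 5 peaks within the gene other than those at its start and end scored 67.2 to 140. At JMJD1C a peak at an internal TSS scored 647, and those away from its TSSs scored 57.1 to 244. SMYD3, with a length of 757971 bp, and KDM4C, with 454786 bp, had a single peak over the whole gene.

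**Figure D4:**
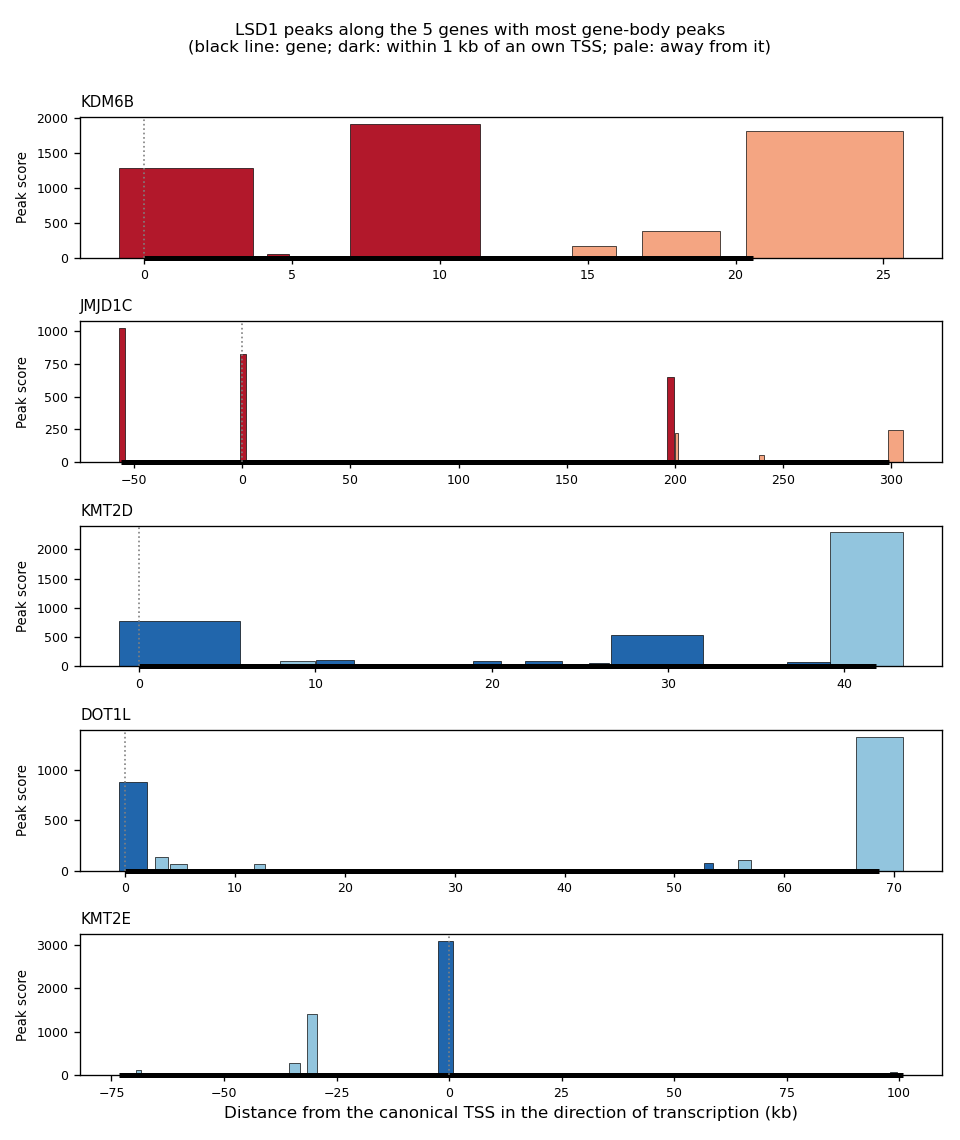
LSD1 peaks along KDM6B, JMJD1C, KMT2D, DOT1L and KMT2E. The x axis is the distance in kb from the canonical TSS along the direction of transcription, bar height is the authors' score, bar width the peak's width and the black line the gene. Dark bars lie within 1 kb of a TSS of the gene and pale bars away from it; the tall pale bars at the end of KMT2D, DOT1L and KDM6B (2293, 1336 and 1821) lie within 1 kb of a TSS of a neighbouring gene.

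Genes that work beside these enzymes were read in the same way. Of 22 cofactors of the MLL/SET1 and Polycomb complexes 21 had a promoter peak, led by PAGR1 (2315), HCFC1 (1955) and WDR82 (1144), and SUZ12 had none. Of 12 genes encoding HP1 proteins and other partners of H3K9 methylation 12 had one, led by CBX3 (2460), CBX5 (2108) and TRIM28 (1644). Of 22 further genes with SET, JmjC or arginine methyltransferase domains 18 had one, led by SETD5 (2912), PRMT2 (1537) and SETD6 (1518). The 4 without were SMYD1, a muscle protein, PRDM9, which acts in meiosis, KDM4E and HR.

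Histone acetylation enzymes had a promoter peak at 22 of 23 genes, led by the deacetylase SIRT1 (2055), the acetyltransferase KAT5 (1664) and HDAC4 (1464), with KAT2A lacking one. Of 16 genes for CoREST partners of LSD1 14 had one, with RCOR2 and GFI1 lacking one and RCOR1 (3100), GSE1 (3041) and HDAC1 (2496) highest. The median score of the genes with a promoter peak was 746 over the 48 methylation enzyme genes, against 757 for the CoREST partners, 586 for the MLL/SET1 and Polycomb cofactors, 637 for the H3K9 partners, 837 for the further SET, JmjC and arginine methyltransferase genes and 630 for the acetylation enzymes. These lists stood, like the 48 genes, above the 58.2% of all protein-coding genes with a promoter peak. The CoREST partners (87.5%) and the further SET, JmjC and arginine methyltransferase genes (81.8%) did not exceed the 88.0% of the CpG-rich genes with 10 or more TSSs, and no difference between lists was tested.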

How the data were processed

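LSD1 ChIP-seq and input DNA of PC-3M-luc cells were measured, 1 library each. Per the labels' protocols, reads from a HiSeq sequencer were aligned to hg19 using bowtie 2. MACS 1.41, Bowtie2, hg19 and mm10 appear in the submitters' processing notes; mm10 was not used. The deposited list gives each peak's position and the authors' score, read from its values as the caller's -10 x log10 p, which no label states. Peak calling settings, the threshold and read depth are not given in the sources used here. All peaks fit GRCh37: 0 run past a chromosome end and 0 pairs overlap. Coordinates are 1-based.

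Genes and TSSs came from GENCODE 44 mapped to GRCh37, and 19856 of 20136 symbols had a canonical TSS there. A promoter peak had any base within 1 kb of any TSS of the gene. Shares have exact 95% binomial (Clopper-Pearson) intervals, which cover counting error only. Lack of a peak means only that no region passed the authors' threshold. Peak positions were given by a rule, for the 5 highest-scoring promoters of each class, genes without a promoter peak, genes with 3 or more gene-body peaks, and KDM1B, and besides for NSD2 and SETDB1, chosen after their values were seen. Of each comparison list up to 3 highest-scoring genes and all without a promoter peak were named. The members and lists were chosen with earlier results of these data known. The counting code was tested on simulated data. Alternatives were a midpoint criterion, the canonical TSS or coding transcripts only, windows of 5 kb or the TSS base, score minimums, removal of the widest 1% of peaks, and other class or gene-body definitions. Counts were made with pandas 2.3.3 and numpy 2.4.6 in Python 3.11.15, intervals with scipy 1.17.1 and plots with matplotlib 3.10.9.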

Additional observations from a re-analysis of the deposited data

How the results depend on the processing

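No paired analysis was possible because there was 1 library of LSD1 and 1 of input. The 6 main results had 48 alternative values, of which 47 stayed (counts within 1.5 times, others within their interval) and 1 moved: with peaks within 1 kb of the gene's own TSSs left out, 16 of 48 genes had a gene-body peak. The rule for values that stayed was wide. Under the midpoint criterion the median score of the lysine methyltransferase genes fell from 783 to 538 and still counted as stayed. The difference in promoter share, demethylase minus lysine methyltransferase genes, ran from -4.25 points at or above the median score to 11.5 points with the midpoint criterion, under which CARM1, EHMT1, NSD2 and SETD1B had no promoter peak. Its sign therefore depended on the definition. At or above the median score KDM3B, KDM4D, KMT2A, KMT2C, KMT5A and PHF2 had none. Read depth and a second library would be needed to say whether genes with low scores differ from those with none.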

Other observations

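The GC content of the promoter was set beside the score of the peak at the canonical TSS. Over the 47 genes with a peak there, Spearman's rho between score and GC content of the 1000 bp around the TSS was -0.0859, as a description across genes of 1 library, against -0.0261 over 8671 protein-coding genes with a CpG-rich promoter. Of the 15 methylation enzyme genes with a GC content over 75%, 14 had a peak within 1 kb of the canonical TSS (93.3%), the exception being CARM1, against 68.9% of the 1010 CpG-rich protein-coding genes in the same GC range. At a GC content over 65% and up to 75% the shares were 17 of 17 against 74.5%, and over 55% and up to 65% 14 of 14 against 81.7%. Unlike the comparison genes, the methylation enzyme genes were not limited to CpG-rich promoters, in the correlation or in these shares. KDM6B among the 17 and KDM2B among the 14 did not meet that definition. The shares were also not matched for TSS number, whose median was 14.5 over the 48 genes and 7 over CpG-rich protein-coding genes. The scores of the 14 genes above 75% ran from 82.1 at KMT2C to 1902 at EHMT1.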
